A study of Mus musculus with 2 samples.

Results

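Probes for the secreted and membrane proteins of the pancreatic zymogen granule were followed in the pancreatic lymph node of diabetic mice. The set was chosen by gene name: Zg16, Sycn, Cuzd1, Gp2, Rnase1 and Spink1 (formerly Spink3). It gave 6 probes of 5 genes among the 41174 gene probes of the array, of which the named ones stand for 19694 genes. No probe was matched to Spink1, the trypsin inhibitor of the granule, which is therefore not analysed here. Zg16 carries its older name 1810010M01Rik in the files and was found by its accession.

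Each array compared a female NOD mouse of 16 weeks with blood glucose above 500 mg/dl, labelled with Cy5, with a pool of 2 female NOD mice of the same age with blood glucose below 200 mg/dl, labelled with Cy3. NOD is an inbred strain that develops autoimmune diabetes, so the euglycemic pool shares this background with the hyperglycemic mice. There were 2 hyperglycemic mice (n = 2), and the pool was the same RNA on both arrays. The pool counts as 1 control sample, which leaves the variation between euglycemic mice unknown and outside the p-values. The p-values use the spread between the hyperglycemic mice, moved by limma toward the spread shared by all tested probes. Cy5 always held the hyperglycemic mouse, so a dye effect of a single probe and the difference between groups cannot be told apart. Ratios are hyperglycemic over pool, so values above 0 are higher in hyperglycemia.

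Zymogen granules are the storage vesicles of pancreatic acinar cells, which pack digestive enzymes in inactive form and release them into the duct after a meal. Besides the enzymes they hold proteins that sort, pack and protect the cargo. Zg16 is a small lectin of the granule matrix, also made by intestinal goblet cells. Sycn (syncollin) lines the inner face of the granule membrane and takes part in exocytosis, Gp2 is the major lipid-anchored glycoprotein of that membrane, and Cuzd1 is a membrane protein with CUB and zona pellucida-like domains. Rnase1, the pancreatic ribonuclease, degrades dietary RNA, so the working label of the set, which speaks of proteins without digestive activity, describes the other genes but not Rnase1.

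The probe of Zg16 lies on mm8 chromosome 7 at 126841471 to 126841530 (minus strand), that of Sycn on chromosome 7 at 28250898 to 28250957 (plus strand) and that of Cuzd1 on chromosome 7 at 131100845 to 131100904 (minus strand). The Gp2 probe is placed on chromosome 7 from 119236671 to 119238322 (minus strand), a span of 1652 bases, longer than the 60 bases of the other probes, so its sequence crosses a splice junction. Rnase1 has a probe nearer the 3′ end of the gene on chromosome 14 (50067000 to 50067059, minus strand) and another nearer the 5′ end (50067253 to 50067312), called the 3′ and 5′ probe here. Coordinates are those of the files, and exons and UTRs of that build were not used here.

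Upstream sequence was available for 4 of the 5 measured genes and is shown to set the promoters of genes active in the same cell type beside each other. The lines below give the 150 bases before the RefSeq transcript start (GRCm38.p6, 5′ to 3′ on the strand of the gene), for Sycn chr7:28540735-28540884 (plus), Cuzd1 chr7:131322293-131322442 (minus), Gp2 chr7:119459273-119459422 (minus) and Rnase1 chr14:51146768-51146917 (minus). Capitals mark matches on either strand to 4 motifs, which were picked after the sequences had been read.
Sycn: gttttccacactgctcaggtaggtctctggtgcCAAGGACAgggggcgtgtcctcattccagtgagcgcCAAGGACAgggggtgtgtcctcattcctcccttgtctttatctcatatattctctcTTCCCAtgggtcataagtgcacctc
Cuzd1: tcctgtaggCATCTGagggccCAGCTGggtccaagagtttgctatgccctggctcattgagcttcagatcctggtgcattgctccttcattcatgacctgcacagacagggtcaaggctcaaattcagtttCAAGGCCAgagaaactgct
Gp2: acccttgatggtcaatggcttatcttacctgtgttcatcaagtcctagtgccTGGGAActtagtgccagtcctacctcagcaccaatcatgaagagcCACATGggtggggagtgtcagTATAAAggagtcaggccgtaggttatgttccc
Rnase1: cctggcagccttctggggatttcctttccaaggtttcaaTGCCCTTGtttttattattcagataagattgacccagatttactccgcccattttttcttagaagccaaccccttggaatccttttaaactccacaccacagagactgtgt

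The motifs were the TATA box (TATAAA), the E-box (CANNTG) read by basic helix-loop-helix factors such as the acinar regulator PTF1A, the core TGGGAA read by RBPJ and its acinar relative RBPJL, and CAAGGNCA, a half-site of the nuclear receptor NR5A2. The CAAGGNCA motif stood 2 times before Sycn and 1 time each before Cuzd1 and Rnase1, and 3.1% of all 32851 promoters held it in this window. It read CAAGGACA both times before Sycn, CAAGGCCA before Cuzd1 and, on the other strand, TGCCCTTG before Rnase1. Whether NR5A2 reads each of these forms was not tested. The TATA box stood before Gp2, at -32 to -27, and was held by 7.6% of promoters. TGGGAA or its complement TTCCCA stood before Sycn and Gp2 (13.1% of promoters), and an E-box before Cuzd1 and Gp2 (47.7%). A match describes these letters and not a bound factor.

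On each array all 6 probes passed the scanning software's test for a signal well above background in Cy3 and in Cy5, and none was marked as an outlier or saturated. For Zg16 the pool read 188466 on array 1, over a local background of 31, and 113298 on array 2, over 31.5. The hyperglycemic signal for Zg16 was 5480 in mouse 1 and 13255 in mouse 2, over 35 and 37.5. Zg16 transcripts were thus bright in the euglycemic pool as well as in both hyperglycemic mice.

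Sycn gave pool signals of 141866 and 77755 and hyperglycemic signals of 5139 and 6519. The Gp2 probe gave 48152 and 29842 in the pool, and 912 and 1096 in the hyperglycemic mice. For Cuzd1 the pool gave 5857 and 3686, and mice 1 and 2 gave 84.3 and 145 over Cy5 backgrounds of 35 and 33. The hyperglycemic signal of Cuzd1 thus lay close to its background, which was not so for the other probes. For Rnase1 the 3′ probe read 57171 and 26243 in the pool and 989 and 1426 in the mice. The 5′ probe of Rnase1 read 156589 and 81584 in the pool and 2746 and 4584 in the mice.

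**Figure D1:**
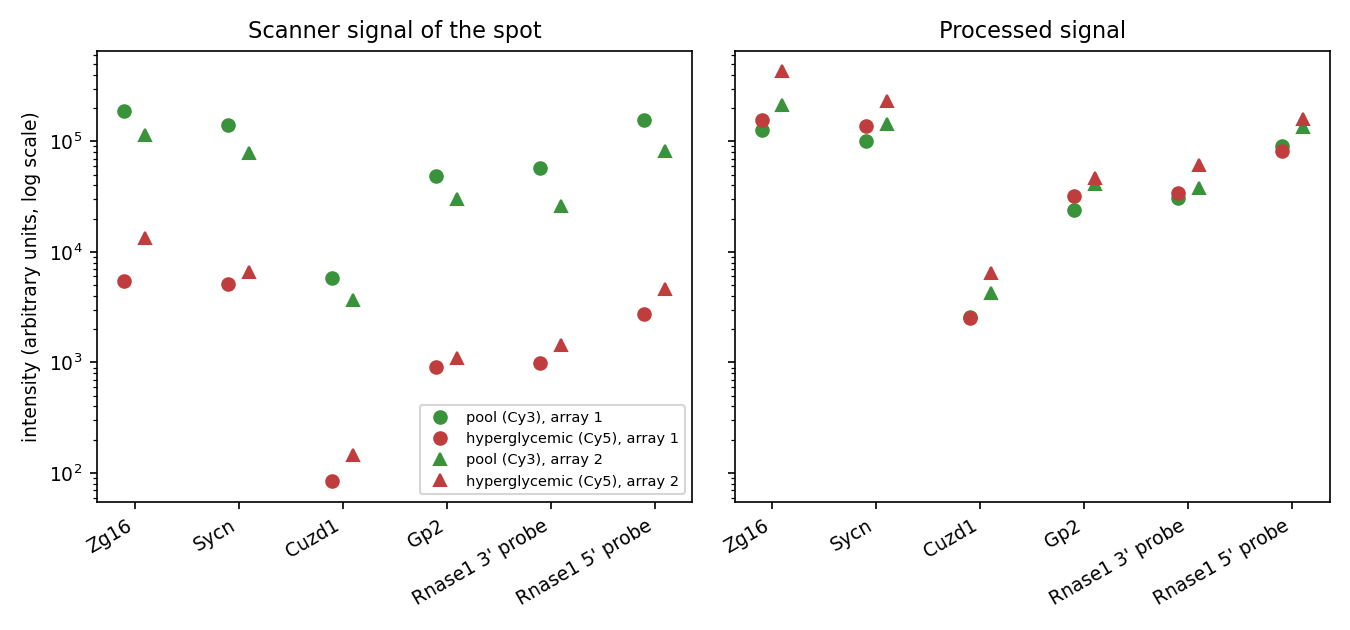
Signals of the 6 probes (log axis, arbitrary intensity units), as scanned on the left and after the scanning software's background subtraction and dye normalization on the right. Green symbols are the pool (Cy3), red symbols the hyperglycemic mouse (Cy5), circles array 1 and triangles array 2. As scanned, every pool point lies far above the hyperglycemic point of the same array; after normalization the channels lie close together.

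The whole Cy5 channel was dim. Over all gene spots its median signal was 37.7 and 38.2 on arrays 1 and 2 over a background of 35, against 233.7 and 81.2 in Cy3. Before dye normalization the log2 ratio of the members, after background subtraction, ran from -6.92 for Cuzd1 to -4.80 for Sycn on array 1 and from -5.07 to -3.10 on array 2. The dye normalization of the scanning software added 5.24 (Sycn) to 6.90 (Cuzd1) on array 1 and 4.12 (Zg16) to 5.68 (Cuzd1) on array 2. The shift was far larger than any ratio left after it, and the ratios below rest on it. By mean intensity the probes of Zg16, Sycn, Gp2 and Rnase1 stood at percentile 97.3 or higher of the 5067 probes tested, and that of Cuzd1 at percentile 81.3.

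The comparison asks whether granule transcripts found in the lymph node change once NOD mice are hyperglycemic. Zg16 and Sycn were higher in the hyperglycemic mice, and the probes of Cuzd1, Gp2 and Rnase1 did not pass the test. In the processed ratios the means ran from 1.03-fold to 1.58-fold. Their size and sign depended on the scaling: the mean log2 ratio of Zg16 was 5.42 with loess on all gene probes and -2.05 with median centring, and that of Sycn 5.01 and -2.13. The test was limma's moderated test of the log2 ratio against 0 across 5067 probes, called at an adjusted p under 0.05. Of these probes 25.2% were called higher and 18.4% lower, so 2 of 6 granule probes called higher is near the background and is not a result about the set.

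Zg16 was at 0.30 in mouse 1 and 1.02 in mouse 2, which is 1.23-fold and 2.03-fold over the pool. Its mean log2 ratio was 0.66 ± 0.51 (SD, n = 2), 1.58-fold higher, with an adjusted p of 0.0336 from limma. Mouse 2 carries most of this difference. The standard error behind that p was 0.20, since limma moved the variance of Zg16 toward that of all tested probes (prior SD 0.232). The call thus rests on this shared variance as well as on the 2 mice. For a single array the scanning software gives an error of 0.21 on the log2 ratio of mouse 1 and 0.22 on that of mouse 2, which covers measurement on 1 array and not the difference between animals.

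Sycn was at 0.44 in mouse 1 and 0.68 in mouse 2, with a mean of 0.56 ± 0.17 (SD, n = 2), 1.48-fold higher (limma, adjusted p = 0.0255). Both mice lay above the pool by a similar amount, with a gap of 0.24 between them. Both calls ended when dim probes were added to the fit: with probes above background in at least 1 channel, the adjusted p from limma was 0.174 for Zg16 and 0.134 for Sycn at the same ratios, and no probe of the array was called.

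Gp2 was at 0.42 in mouse 1 and 0.19 in mouse 2, with a mean of 0.30 ± 0.16 (limma, adjusted p = 0.157). It was the single granule probe with its higher ratio in mouse 1. Cuzd1 was at -0.02 in mouse 1 and 0.61 in mouse 2, and its mean of 0.30 ± 0.44 did not pass (limma, adjusted p = 0.243). Mouse 1 was level with the pool for Cuzd1, and mouse 2 stood above it.

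The Rnase1 probes differed from each other. The 3′ probe was at 0.13 in mouse 1 and 0.70 in mouse 2, with a mean of 0.42 ± 0.40 (limma, adjusted p = 0.106). The 5′ probe was at -0.14 and 0.23, with a mean of 0.04 ± 0.26 (limma, adjusted p = 0.857). The 3′ probe read higher than the 5′ probe by 0.28 in mouse 1 and 0.48 in mouse 2, so the value for Rnase1 depends on the probe, and no value for the gene as a whole is given.

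**Figure D2:**
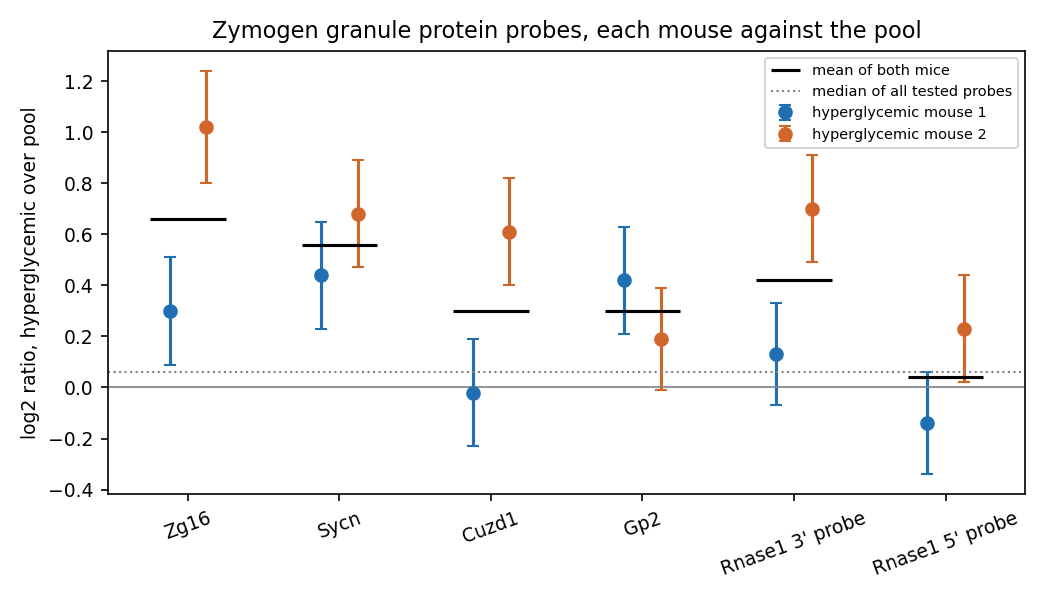
Log2 ratio of each hyperglycemic mouse over the pool for the 6 probes, with bars for the single-array error of the scanning software, black lines for the mean of both mice and a dotted line for the median of all tested probes (0.06). Zg16 and Sycn have both mice above 0; for Cuzd1 and the Rnase1 5′ probe, mouse 1 lies at or below 0.

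In the order of the means, Zg16 came first, then Sycn, the Rnase1 3′ probe, Gp2 and Cuzd1 at about the same value, and the Rnase1 5′ probe. Neighbours in this order mostly differed by less than their spread. Zg16 exceeded Sycn by 0.10 ± 0.34, and Sycn exceeded the Rnase1 3′ probe by 0.15 ± 0.24. The ends of the order stood further apart. Zg16 exceeded the Rnase1 5′ probe by 0.45 in mouse 1 and 0.80 in mouse 2, and Sycn exceeded it by 0.59 and 0.45. Of 15 pairs of probes, 9 had the same order in both mice. These differences carry no test, since the smallest two-sided p of an exact permutation test over 2 mice is 0.5.

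The gap between the mice differed among the granule probes. The ratio was higher in mouse 2 for 5 of 6 probes, by 0.24 for Sycn to 0.72 for Zg16, and the ratio of Gp2 differed by -0.23, against a median absolute gap of 0.23 over all tested probes. Of all tested probes 42.5% were higher in mouse 2. The pool was the same RNA on both arrays. As scanned it was dimmer on array 2, with a median Cy3 signal of 81.2 against 233.7 on array 1. The linear Cy3 factor of the software was 0.446 on array 1 and 1.315 on array 2. Offsets of processed signal between the arrays carry this scaling, so each probe is set beside the median probe. The processed pool signal was higher on array 2 by 0.66 (log2) for the median probe, by 0.75 for Zg16, 0.51 for Sycn, 0.73 for Cuzd1, 0.77 for Gp2, 0.29 for the Rnase1 3′ probe and 0.58 for the 5′ probe. The processed Cy5 signal of mouse 2 exceeded that of mouse 1 by 0.59 for the median probe, and by 1.47 for Zg16 and 1.36 for Cuzd1. Against the median probe, the gap between the mice for Zg16 and Cuzd1 thus lay mainly in the processed Cy5 signal. For the Rnase1 3′ probe a low processed pool reading on array 2 contributed as well.

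The digestive enzymes that share the granule moved in both directions. Among 21 measured enzyme genes the test called 9 higher and 3 lower and left 9 without a call, with a median log2 ratio of 0.45 against 0.06 over all tested probes. Over the 4402 genes tested (brightest probe of each), 25.4% were called higher and 18.2% lower. Trypsin Try5 was at 1.51 ± 0.18, chymotrypsinogen Ctrb1 at 1.11 ± 0.35 and colipase Clps at 0.90 ± 0.18. Elastase Cela3b, at 0.65 ± 0.33, had the smallest ratio among the higher calls, close to that of Zg16. The amylases Amy2a5 at -2.15 ± 0.13 and Amy1 at -1.82 ± 0.02, and elastase Cela1 at -0.73 ± 0.70, were lower. Amylases and trypsins have near-identical copies in the genome, and a probe of one may read another. As for the granule proteins, most enzymes had their higher ratio in mouse 2 (17 of 21). The median of the 6 granule probes was 0.36, and none of them came near the ratios of Try5 or of the amylases.

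Among genes that move and release the granule, the test called 2 of the 9 measured higher and 0 lower, and left 7 without a call, with a median of 0.16. This is near the 25.4% of all tested genes called higher, and is not a result about the list. Rab3d, the small GTPase on the granule surface, was at 0.41 in mouse 1 and 1.68 in mouse 2 (mean 1.05 ± 0.90). Aqp12, an acinar water channel, was at 0.49 ± 0.28 with an adjusted p of 0.0496 from limma. The SNARE proteins Vamp8 (0.31 ± 0.28) and Vamp2 (-0.16 ± 0.12) and the receptor for cholecystokinin, Cckar (0.38 ± 0.07), did not pass. Neither did Dmbt1, whose product includes the mucin-like granule protein muclin, at -0.50 ± 0.55. The other 11 genes of this list, Rab27b and Stx3 among them, did not pass the filter on dim probes.

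**Figure D3:**
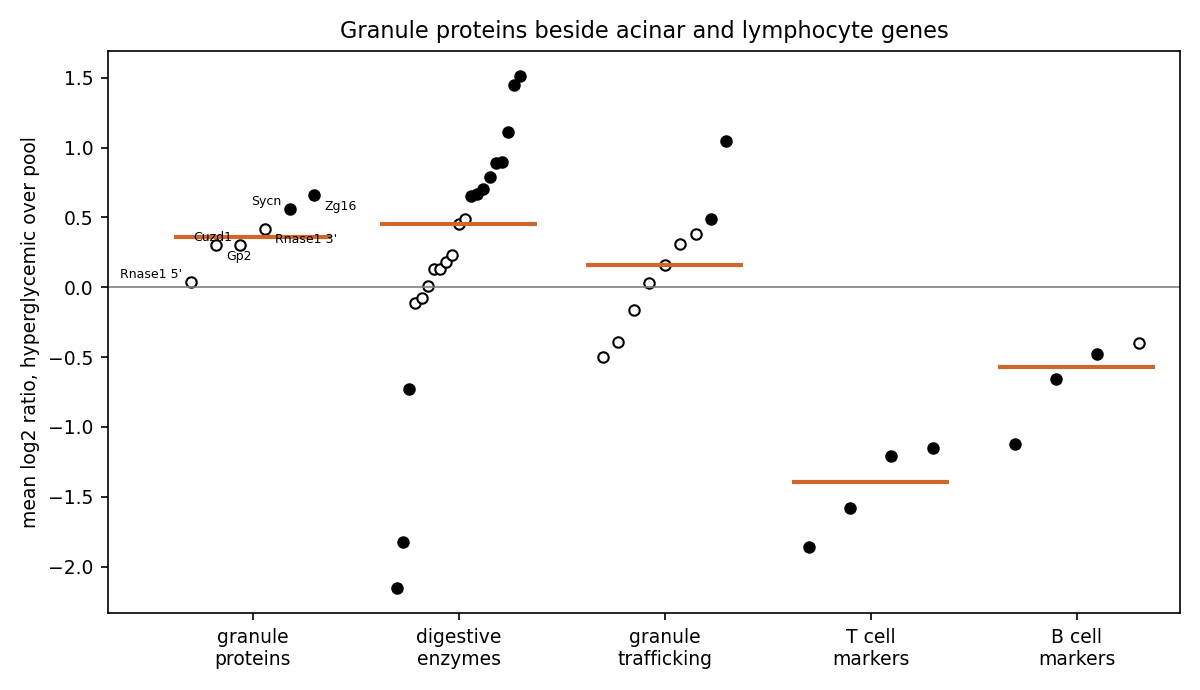
Mean log2 ratio of hyperglycemic mice over the pool for the 6 granule probes and for the genes of 4 lists (1 point a gene, filled where called at an adjusted p under 0.05, orange lines for medians). The granule probes lie between 0.04 and 0.66, inside the range of the digestive enzymes (-2.15 to 1.51), while all tested T cell and B cell markers lie below 0.

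Of the acinar transcription factors, Bhlha15 (Mist1), which shapes the secretory apparatus, was lower at -0.75 ± 0.18 and Rbpjl was at -0.06 ± 0.18 without a call, while Ptf1a was not tested. Other ribonucleases and protease inhibitors were also measured. Rnase4, a secreted ribonuclease, was lower at -0.71 ± 0.44 and Rnaset2b, an acid ribonuclease, was at -0.34 ± 0.04 without a call. Among other protease inhibitors, the antitrypsins Serpina1b (-0.99 ± 0.84) and Serpina1d (-0.75 ± 0.41), which are made mainly in liver, were lower, and Slpi (0.02 ± 0.79) and Pebp1 (-0.13 ± 0.25) were not called. Of 4 liver markers, Alb (-2.07 ± 1.18) and Fabp1 (-3.34 ± 1.11) were tested and were lower, and Apoa1 and Ttr did not pass the filter on dim probes. The summed signal of both tested liver markers over the pool was -1.5 in mouse 1 and -3.22 in mouse 2 (log2), and its part in the antitrypsin ratios was not tested. The Kazal-type inhibitors Spink2, Spink4, Spink5, Spink8 and Spink10 were not above background in both channels.

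The lymph node markers Cd3d, Cd3g, Lck and Il7r of T cells and Ms4a1 and Cd74 of B cells passed the filter on dim probes, as did the stromal chemokines Ccl21a, Ccl19 and Cxcl13, while Cd3e, Cd79a, Pdpn and Madcam1 did not. T cell markers were lower for 4 of 4 (median -1.39) and B cell markers for 3 of 4 (median -0.57), where 18.2% of all tested genes were called lower. The stromal chemokines went both ways, with Ccl19 lower at -1.04, Cxcl13 higher at 0.71 ± 0.21 and Ccl21a not called at -0.42 ± 0.19. Acinar cell markers were above background in both channels for 9 of 10 genes. The test called 3 of these 9 higher and 2 lower and left 4 without a call, against 25.4% higher and 18.2% lower over all tested genes. Their ratios ran from -2.15 (Amy2a5) to 1.11 (Ctrb1), with a median of 0.13. The summed processed signal of the acinar markers in the hyperglycemic mouse over the pool was 0.18 on array 1 and 0.29 on array 2 (log2). The brightest genes weigh most in this sum. Acinar transcripts were therefore present in the pool and in both hyperglycemic mice. The part of acinar and lymphocyte content in the ratios of the granule genes was not tested, and in bulk tissue fewer cells of a type and less RNA per cell cannot be told apart. Of the goblet and M cell markers, Spib alone was tested and was lower at -1.38. This single gene does not show that such cells were present or changed. Muc2, Tff3, Clca1, Agr2 and Tnfaip2 did not pass the filter on dim probes, where the Cy5 channel was dim throughout. The part of such cells in the Zg16 signal was not tested. Neither were any of 5 duct and 7 islet markers.

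Likeness was measured as the distance between patterns of 4 log2 signals (both channels on both arrays, each minus the probe's own mean) over 4402 genes. The nearest genes were Rab24, Arfgap3 and Fkbp11 for Zg16, Sun1 and Zfand1 for Sycn, Fbxl12, Cyb561d1 and Txndc17 for Cuzd1, and Triap1 and Cnbp for Gp2, besides 2 transcripts without a gene name. For the Rnase1 3′ probe they were Klk1b3, Prss3 and Ctrc, the last a chymotrypsin of the same granules. These were the loosest matches, at distances of 0.104 to 0.144 against 0.018 to 0.088 for the other probes. For the Rnase1 5′ probe the nearest were Ptcd3, Grk2 and Ramp1. With 4 signals many genes fit closely, and the distances describe these arrays alone.

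The size of the ratios followed the normalization. When loess was fitted to all gene probes after normexp correction, most of them at Cy5 background, Zg16 was at 5.42 and Sycn at 5.01. Fitting the same curve to the probes above background in both channels gave 0.76 and 0.81. Without any curve, background-subtracted signals centred on the median put Zg16 at 2.05, Sycn at 1.96 and Cuzd1 at 0.16. Median centring over all gene probes moved the median tested probe to -2.55, and relative to it Zg16 and Sycn were at 0.50 and 0.42 while Cuzd1, Gp2 and both Rnase1 probes were at -0.63 to -0.39. Zg16 and Sycn were above the median tested probe under every processing tried. Cuzd1, Gp2 and the Rnase1 3′ probe were above it under every processing except this median centring. The Rnase1 5′ probe was at -0.01 relative to it in the reported fit and went both ways under the others.

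**Figure D4:**
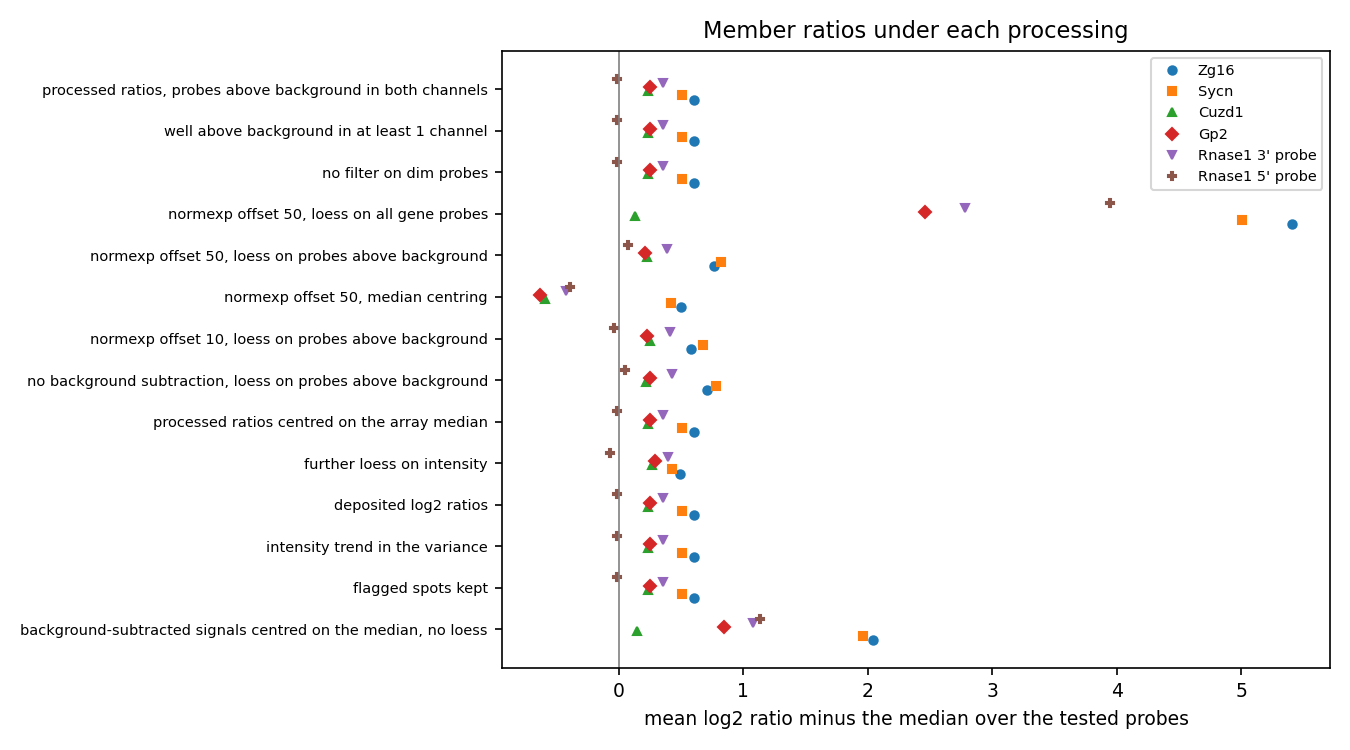
Mean log2 ratio of the 6 probes minus the median over the tested probes, under each processing (rows). Zg16 and Sycn lie to the right of 0 in every row, by 0.42 to 5.41; loess on all gene probes and the setting without loess give the widest spread.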

How the data were processed

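Per the file headers, spots were quantified by Agilent Feature Extraction (version 10.7.3.1); the deposited spot, background and processed signals are intensity values, and the processed ones were background-subtracted and dye-normalized (linear factor and LOWESS). Per the file headers the log ratio is log10 of Cy5 over Cy3 processed signal, with an error and a p-value of the software for a single array. The authors' deposited table of log2 ratios holds the same ratios for 5072 gene probes, chosen by a rule not given in the sources used here.

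Log10 ratios were turned into log2. Probes whose signal the software called well above background in Cy3 and Cy5 on each array were kept (5067), and spots marked as outliers were left out. limma 3.58.1 in R 4.3.3 tested the mean ratio against 0 (two-sided, Benjamini-Hochberg over all tested probes), and every adjusted p comes from it. The test was also run on simulated normal ratios drawn from its own fitted variances. Such ratios meet its assumptions by construction, so that run cannot bear out the calls made here. Normexp offsets were 50 and 10, and loess used a span of 0.3. Nothing in the labels says more of how the mice were chosen. The number of arrays limits precision. Probes were named by accession (23374), symbol (6733) or synonym (2919) through RefSeq (GRCm38.p6), and 8148 stayed unnamed; promoter sequences are RefSeq's. List genes took their brightest tested probe; the text names all member probes, called list genes (of more than 8, the 4 highest and 4 lowest) and the 3 nearest patterns. Items withheld here are not reported. Some list members without a call were named after their values were seen. The members and lists were chosen with earlier results of these data known.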

Additional observations from a re-analysis of the deposited data

How the results depend on the processing

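Of 78 ratios of the 6 probes under 13 alternatives (1 of them, signals centred without loess, chosen after seeing the data), 57 kept direction and side of the threshold. These 57 include probes without a call that stayed without one. They also include values from settings that left the ratios of the 6 probes as in the reported fit. These were the deposited ratios, both fits with dim probes added, the intensity trend in the variance and the kept flagged spots. In these settings the call could change but not the direction. Of the ratios outside the 57, 6 lost a call, all of them of Zg16 or Sycn, 6 gained one and 9 changed sign. Adding dim probes ended both calls at unchanged ratios of 0.66 for Zg16 and 0.56 for Sycn: with 1 channel above background 0 probes were called higher and 0 lower by limma (3391 at an unadjusted p under 0.05), and with no filter 0 and 0 (4295 unadjusted). Normexp with offset 10 put Zg16 at 0.58 (adjusted p = 0.087), and a further loess on intensity put Sycn at 0.42 (adjusted p = 0.0595), neither called. Median centring after normexp gave -2.05 for Zg16, -2.13 for Sycn, -3.14 for Cuzd1, -3.18 for Gp2, -2.97 for the Rnase1 3′ probe and -2.94 for the 5′ probe, with 0 higher and 5066 lower calls. The Rnase1 5′ probe turned to -0.05 with offset 10, -0.01 with centred ratios and -0.08 with a further loess. Loess on all gene probes called the Rnase1 3′ probe at 2.79 and the 5′ probe at 3.96; an intensity trend in the variance called the 3′ probe at 0.42; and centring without loess called Gp2 at 0.86 and the Rnase1 probes at 1.08 and 1.15. Higher and lower calls were 1275 and 930 in the reported fit, 188 and 2 with loess on all gene probes, 556 and 442 with loess on probes above background (offset 50), and 354 and 236 with offset 10. Higher calls made up 57.8% of calls in the reported fit, 98.9% with loess on all gene probes and 0.0% with median centring. Leaving out 1 mouse gave 0.30 to 1.02 for Zg16, 0.44 to 0.68 for Sycn, -0.02 to 0.61 for Cuzd1, 0.19 to 0.42 for Gp2, 0.13 to 0.70 for the Rnase1 3′ probe and -0.14 to 0.23 for the 5′ probe, with no test. The causes were not tested. Both arrays lay on 1 slide, so the slide as a block was not run. No paired analysis was possible because 1 pool served both mice.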
